A study of Mus musculus with 6 samples.

Results

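The nuclear-encoded genes of oxidative phosphorylation were examined in single-nucleus RNA sequencing of mouse jejunal organoids, epithelial cultures grown from crypts of the small intestine. Members were the protein-coding genes whose symbol starts with Nduf, Uqcr, Cox4, Cox5, Cox6, Cox7, Cox8 or Atp5, and 88 of the 31319 genes in the count matrices met this rule. They were 38 subunits named for complex I, 8 complex I assembly factors, 8 genes of complex III, 17 of complex IV and 17 of complex V. The organoids came from C57BL/6 mice of 8 to 12 weeks and were grown in conditioned medium of quiescent (QCM) or senescent (SCM) mouse fibroblasts, with 3 samples for each medium. The medium was the only labelled difference between the groups. The labels number the samples but do not state separate mice or cultures, so p-values measure the spread between these samples. The labels also do not state that samples of the same number are pairs. Directions by replicate number are therefore given as a description.

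Oxidative phosphorylation is the last stage of respiration in the inner mitochondrial membrane. Complex I takes electrons from NADH, complex III passes them on through cytochrome c, complex IV hands them to oxygen, and complex V uses the resulting proton gradient to make ATP. Most subunits are encoded in the nucleus and imported, whereas a small set is encoded in mitochondrial DNA and transcribed inside the mitochondrion. Absorptive enterocytes are rich in mitochondria. The deposited mitochondrial fraction of a nucleus (mt_frac) counts transcripts of mitochondrial DNA. These transcripts were not among the genes of the matrices, so no gene entered both mt_frac and the members. Both were measured in the same nuclei and libraries, so they were not independent.

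Samples differed in size and depth. They held 430 to 10833 nuclei and 4071926 to 41035733 UMIs (unique molecules counted), with the fewest nuclei in SCM replicate 1. SCM replicate 1 shared 175 of its 430 cell barcodes with QCM replicate 1, or 40.7% of its own and 4.62% of those of QCM replicate 1, whereas every other pair of samples shared 0 to 36. In SCM replicate 1, members made up 0.983% of UMIs in nuclei with a shared barcode and 0.871% in the others. The fits between media, the summed level of the members, the range across clusters, mt_frac and the contrast of nuclei by mt_frac were therefore repeated without these barcodes. Markers of fibroblasts, the source of the conditioned media, summed to 0.288 to 2.71 counts per 1000000 counts (CPM) per sample, with 5 of 6 measured markers under 1 CPM in every sample, and 5 of 7 immune markers were also under 1 CPM everywhere. The summed enterocyte markers, by contrast, reached 1194 to 5356 CPM in QCM and 519 to 1854 CPM in SCM. They were lower in SCM at all 3 replicate numbers, as were Paneth markers (519 to 2635 CPM in QCM and 335 to 582 CPM in SCM) and enteroendocrine markers (129 to 198 and 40.5 to 129 CPM). Goblet and tuft markers had no common direction across the replicate numbers. Goblet markers had 2017, 820 and 1136 CPM in QCM replicates 1, 2 and 3 and 507, 841 and 654 CPM in SCM. Tuft markers had 26.7, 32.3 and 50.1 CPM in QCM and 38.1, 37.3 and 31.4 CPM in SCM. Stem cell markers were higher in SCM at all 3 numbers, at 2149 to 3651 CPM in QCM and 2780 to 4328 CPM in SCM. The 8 measured markers of fetal-like epithelium had 93.9, 46.0 and 66.4 CPM in QCM replicates 1, 2 and 3 and 232, 602 and 154 CPM in SCM, with no overlap. The part of these lists in the results for the members was not tested.

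Members took up less of the nuclear transcriptome in SCM in each replicate number, but the groups overlapped. They accounted for 3.08%, 1.17% and 1.98% of UMIs in QCM replicates 1, 2 and 3. The values for SCM replicates 1, 2 and 3 were 0.927%, 0.779% and 1.47%. QCM replicate 1 stood highest and SCM replicate 2 lowest, and SCM replicate 3 lay above QCM replicate 2. QCM averaged 2.08% ± 0.958 (SD, n = 3), against 1.06% ± 0.365 (SD, n = 3) for SCM. On the log2 scale SCM was lower by a mean of -0.92, which exceeded the SD of the log2 values in QCM (0.70) and in SCM (0.47). Counting error of the UMIs alone was small beside this spread, with a Wilson 95% confidence interval of 0.918% to 0.936% in the shallowest sample, SCM replicate 1. This interval takes UMIs as independent draws and leaves out the spread between nuclei. The nuclei of SCM replicate 1 with a shared barcode (0.983%) and the others (0.871%) both lay outside it. The log2 difference between media was -0.58 without QCM replicate 1, and replicates 2 and 3 by themselves gave -0.51. It was -0.95 without the shared barcodes. It was -0.88 when the 9 clusters of nuclei with at least 10 nuclei in all 6 samples had equal weight in every sample. A different mix of these clusters did not enter this value. The other clusters were left out, and a different mix of nuclei within a cluster was not adjusted for.

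The estimates of the complexes differed in size. At each of the 3 replicate numbers, SCM had the lower percent of UMIs for all of them, and the mean log2 ratio of SCM to QCM was -0.87 for complex I, -1.01 for complex III, -1.06 for complex IV and -0.85 for complex V. The complex I assembly factors, which help to build the complex but are not part of it, had -0.17, with 0.0323% ± 0.00297 (SD, n = 3) of UMIs in QCM and 0.0288% ± 0.00280 (SD, n = 3) in SCM. No test was made of these sums.

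Ribosomal protein genes had the same order of samples as the members, and mt_frac had another. Ribosomal protein genes held 14.1%, 4.92% and 10.3% of UMIs in QCM (replicates 1, 2 and 3) and 4.17%, 2.61% and 7.25% in SCM. Their mean log2 ratio was -1.06. The ratio of ribosomal protein to member UMIs stayed between 3.35 and 5.18 in all samples. Malat1, an RNA retained in the nucleus, took up a larger percent of UMIs in SCM at all 3 replicate numbers, with 1.59% ± 0.403 (SD, n = 3) for QCM and 2.22% ± 0.448 (SD, n = 3) for SCM. The part of these shifts in the result for the members was not tested.

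The median mt_frac was 1.00%, 1.83% and 3.71% for QCM replicates 1, 2 and 3, and 0.803%, 2.21% and 3.54% for the SCM replicates. Samples with the same number had similar values, and the groups overlapped almost fully. QCM averaged 2.18% ± 1.39 (SD, n = 3), the same to 3 digits as SCM at 2.18% ± 1.37 (SD, n = 3). The two-sided exact permutation p was 1, where 3 samples against 3 allow no p under 0.1. QCM replicate 1, which had the highest percent of member UMIs, had the second-lowest mt_frac. The ratio of the members' percent to the mean mt_frac of the nuclei thus ranged from 0.305 in SCM replicate 2 to 3.05 in QCM replicate 1, and was at most 1.03 in the other 5 samples.

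**Figure D1:**
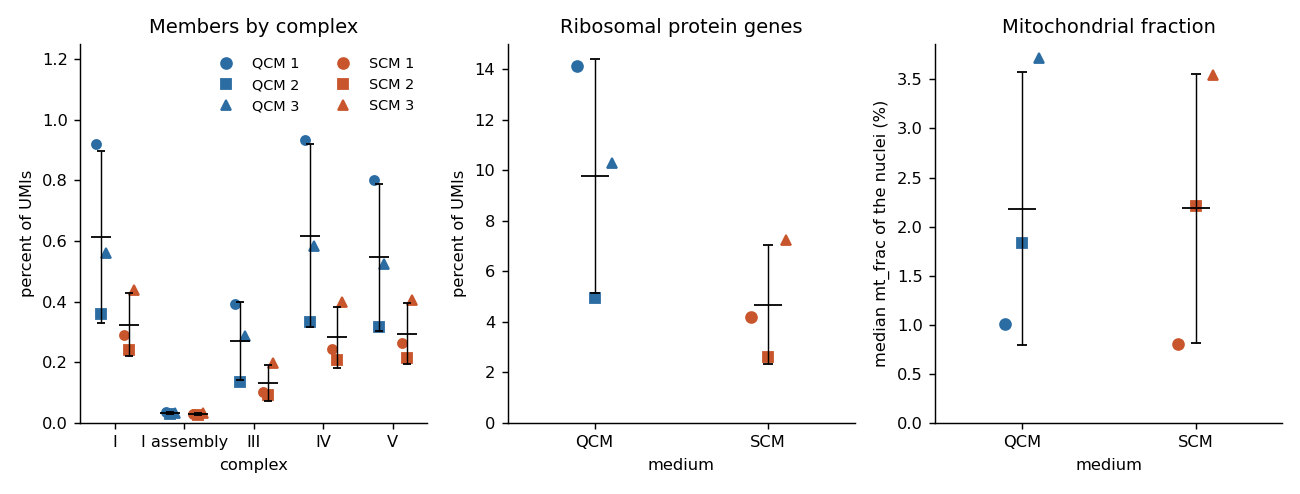
Percent of UMIs taken up by members of each complex (left) and by ribosomal protein genes (middle), and the median mt_frac of the nuclei in percent (right), for the 3 QCM and 3 SCM samples; symbols are samples and black bars show mean and SD. Members and ribosomal protein genes were lower in SCM at every replicate number, whereas mt_frac had nearly equal means of 2.18%.

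The genes were then tested one by one with edgeR's quasi-likelihood test on UMIs summed over the nuclei of each sample. Of the 88 members, 85 passed the filter on low counts, and Cox6a2, Cox7b2 and Cox8b did not. Estimates were below 0, that is lower in SCM, for 82 of 85 members, against 51.4% of all 19046 genes tested. The median log2 ratio was -1.22 for the members and -0.01 for all genes tested. No member passed a Benjamini-Hochberg adjusted p of 0.05 over all genes, as 0% of all genes did, and the smallest adjusted p of a member was 0.927. At an unadjusted edgeR p under 0.05, 52 of the 85 members were lower and 0 were higher in SCM, beside 3.08% of all genes that were lower. DESeq2 also called 0 members, while it called 0.11% of all genes, and at an unadjusted DESeq2 p under 0.05 it had 68 members and 4.92% of all genes lower in SCM.

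This count rested on single samples, while the median of the members stayed between -1.61 and -0.57 when 1 sample was left out. Without QCM replicate 1 the median of the members was -0.57 and 1 member was lower at an unadjusted edgeR p under 0.05, beside 0.402% of all genes. Leaving out SCM replicate 1 gave 2 members beside 0.82% of all genes, and leaving out SCM replicate 2 gave 1 beside 0.289%. Leaving out QCM replicate 3 gave 24 members beside 2.74%. The count was higher without QCM replicate 2, at 70 members beside 8.71% of all genes, and without SCM replicate 3, at 63 beside 4.55%. With library size alone in place of TMM scaling the median of all genes shifted to 0.14 and that of the members to -1.003.

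In 8 of the 85 members tested, or 9.41%, the CPM of all SCM samples lay below those of all QCM samples, beside 2.09% of all genes. They included Ndufa9, Ndufb11, Ndufb9 and Ndufs7 of complex I, the assembly factor Ndufaf3, and Cox4i1 and Cox6a1 of complex IV. For 66 of 85 members, SCM had the lower CPM at all 3 replicate numbers, as it had for 10.9% of all genes.

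Among the 7 core subunits of complex I, the catalytic subunits conserved from bacteria, the median log2 ratio was -0.91. At an unadjusted edgeR p under 0.05, 4 were lower in SCM, beside 3.08% of all genes. Such counts by complex and by list were not repeated with a sample left out. The count over all members fell to 1 without QCM replicate 1. The core subunits with the most UMIs were Ndufv2 and Ndufs1, both iron-sulfur proteins of the arm that accepts electrons. Ndufs1 had 113, 135 and 133 CPM in QCM replicates 1, 2 and 3 and 117, 118 and 143 CPM in SCM. The samples were interleaved, with a log2 ratio of -0.16 ± 0.17 (SE, edgeR adjusted p = 0.929). Ndufv2 had 234, 128 and 136 CPM in QCM and 100.2, 103 and 141 CPM in SCM, with a log2 ratio of -0.74 ± 0.35 (SE, edgeR adjusted p = 0.927). Only QCM replicate 1 stood clear of the SCM samples.

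The 31 other complex I subunits had a median of -1.25. At an unadjusted edgeR p under 0.05, 23 were lower, beside 3.08% of all genes. Ndufa4, which is named for complex I but is now known as a subunit of complex IV, had 984, 265 and 456 CPM in QCM replicates 1, 2 and 3 and 184, 171 and 347 CPM in SCM. SCM replicate 3 lay above QCM replicate 2, so the groups overlapped at a log2 ratio of -1.52 ± 0.58 (SE, edgeR adjusted p = 0.927). Ndufb9, an accessory subunit of the membrane arm, had 530.3, 261 and 282 CPM in QCM and 123, 123 and 238 CPM in SCM. Here every SCM sample was below every QCM sample, with a log2 ratio of -1.35 ± 0.45 (SE, edgeR adjusted p = 0.927). Ndufa1, a small membrane subunit and one of the 3 members with the lowest ratios, had 205, 35.7 and 102 CPM in QCM and 49.4, 33.04 and 55.8 CPM in SCM (log2 ratio -1.57 ± 0.62, SE).

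The 8 assembly factors had a median nearer to 0, at -0.24. At an unadjusted edgeR p under 0.05, 1 was lower, beside 3.08% of all genes. Ndufaf4 had 82.6, 84.6 and 84.8 CPM in QCM and 97.5, 69.6 and 88.4 CPM in SCM, and Ndufaf2 had 71.5, 58.8 and 60.1 CPM in QCM and 61.1, 59.3 and 57.5 CPM in SCM. Neither separated the media. Ndufaf5, which modifies the core subunit Ndufs7, had a log2 ratio of -0.01 ± 0.19 (SE), and its sign changed with the scaling. Ndufaf3 and Ndufaf8 had lower estimates. Ndufaf3 had 24.4, 11.7 and 12.9 CPM in QCM and 6.39, 7.55 and 11.1 CPM in SCM, a log2 ratio of -1.16 ± 0.43 (SE, edgeR adjusted p = 0.927). Ndufaf8 had 81.03, 24.6 and 65.1 CPM in QCM and 30.7, 18.5 and 46.8 CPM in SCM, lower in SCM at all 3 replicate numbers with overlapping groups (log2 ratio -1.04 ± 0.53, SE).

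All 8 members of complex III were lower in SCM by estimate, with a median of -1.27. At an unadjusted edgeR p under 0.05, 6 were lower, beside 3.08% of all genes. Uqcrh, the hinge protein that binds cytochrome c1, had 887, 325 and 578 CPM in QCM replicates 1, 2 and 3 and 191, 185 and 462 CPM in SCM. Uqcr11, a small subunit, had 760, 192 and 633 CPM in QCM and 155, 152 and 358 CPM in SCM. In both, SCM replicate 3 was above QCM replicate 2, and the log2 ratios were -1.30 ± 0.54 and -1.46 ± 0.61 (SE). Uqcrh has processed pseudogenes, as do other members, and reads shared with such copies make its level uncertain.

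In complex IV, 14 of 17 members were tested, with a median of -1.29. At an unadjusted edgeR p under 0.05, 10 were lower, beside 3.08% of all genes. Cox4i1, the common form of a regulatory subunit, was the most abundant member by UMIs. It had 1568, 685 and 1026 CPM in QCM and 318, 343 and 682 CPM in SCM, and the groups did not overlap, although QCM replicate 2 and SCM replicate 3 were nearly equal. Its log2 ratio was -1.49 ± 0.48 (SE, edgeR adjusted p = 0.927). Cox8a had 1297, 484 and 868 CPM in QCM and 351, 284 and 617 CPM in SCM (log2 ratio -1.29 ± 0.50, SE). Cox6c had 1087, 211 and 725 CPM in QCM and 245, 159 and 341 CPM in SCM (log2 ratio -1.67 ± 0.63, SE). For both, the QCM samples spanned a wider range than the SCM samples.

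Isoforms known from muscle, testis, lung or hypoxia were rare in these organoids, except Cox7a1. Cox7a1, the heart and muscle form of subunit 7a, had 40.04, 5.52 and 40.85 CPM in QCM replicates 1, 2 and 3 and 2.70, 3.99 and 15.9 CPM in SCM. It had the lowest ratio of any member, at log2 -2.06 ± 0.89 (SE, edgeR adjusted p = 0.927), and SCM replicate 1 held 11 UMIs of it. Ndufa4l2, a relative of Ndufa4 known for its response to low oxygen, ranged from 0.737 to 8.33 CPM. Cox6b2 ranged from 1.72 to 5.30 CPM and Cox4i2 from 0.453 to 1.15 CPM. Cox6a2, Cox7b2 and Cox8b had at most 1.00 CPM, and Cox7b2 had UMIs in replicate 3 of each medium only. The defining muscle markers Acta1, Myh11, Des, Ckm and Myog summed to 4.43 to 17.1 CPM over the 4 measured.

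Complex V members had a median of -1.16. At an unadjusted edgeR p under 0.05, 8 of 17 were lower, beside 3.08% of all genes. The catalytic beta subunit Atp5b had 899, 498 and 624 CPM in QCM and 369.9, 345 and 515 CPM in SCM. The alpha subunit Atp5a1 had 681, 394 and 413 CPM in QCM and 317, 256 and 419 CPM in SCM. QCM and SCM overlapped in both, with log2 ratios of -0.91 ± 0.36 and -0.78 ± 0.36 (SE). Atp5s, a gene named for a coupling factor of the synthase, had the highest ratio of the members with at least 10 CPM. It had 22.1, 28.9 and 21.7 CPM in QCM and 39.3, 26.7 and 27.5 CPM in SCM, a log2 ratio of 0.19 ± 0.20 (SE).

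The 3 genes Atp5g1, Atp5g2 and Atp5g3 encode precursors of the same mature protein, subunit c of the membrane ring, and they did not go together. Atp5g1 had 611, 231 and 400.2 CPM in QCM replicates 1, 2 and 3 and 129.7, 112 and 284 CPM in SCM. Atp5g3 had 609, 225 and 418 CPM in QCM and 163, 147 and 297 CPM in SCM. Atp5g2 had 33.2, 39.9 and 31.5 CPM in QCM and 57.0, 37.2 and 36.2 CPM in SCM. The log2 ratios were -1.44 ± 0.52 for Atp5g1, -1.25 ± 0.48 for Atp5g3 and 0.14 ± 0.21 for Atp5g2 (SE, edgeR adjusted p = 0.927, 0.927 and 0.942), and that of Atp5g2 was -0.066 without SCM replicate 1. The difference between the genes was not tested.

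**Figure D2:**
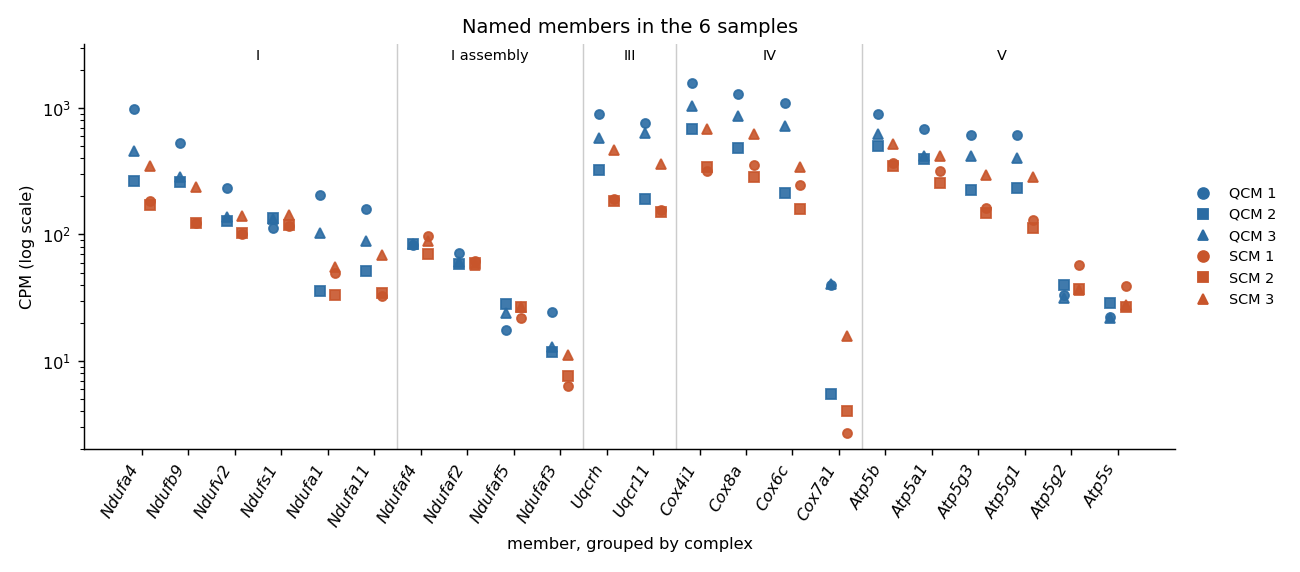
CPM on a log axis of the named members with a mean of at least 10 CPM, grouped by complex, in each QCM (blue) and SCM (orange) sample. QCM replicate 1 is the highest sample for most members, while Ndufs1, Ndufaf4, Ndufaf5, Atp5g2 and Atp5s show interleaved samples.

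The promoters of these 3 genes are printed to compare the members that encode subunit c, with that of Cox6a1, a member whose samples did not overlap. Each is the 250 bases before the RefSeq start of the gene on GRCm38.p6, written 5′ to 3′ on the strand of the gene. Capitals mark matches to the NRF1 core GCATGCGC or the ETS core CCGGAAG on either strand, and NRF1 matches on the 2 strands overlap each other.
Atp5g1: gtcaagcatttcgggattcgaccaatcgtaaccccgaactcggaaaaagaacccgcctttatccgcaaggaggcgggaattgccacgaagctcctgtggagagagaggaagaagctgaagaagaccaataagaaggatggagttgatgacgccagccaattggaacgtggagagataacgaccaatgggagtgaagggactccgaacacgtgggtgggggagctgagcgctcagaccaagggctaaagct
Atp5g2: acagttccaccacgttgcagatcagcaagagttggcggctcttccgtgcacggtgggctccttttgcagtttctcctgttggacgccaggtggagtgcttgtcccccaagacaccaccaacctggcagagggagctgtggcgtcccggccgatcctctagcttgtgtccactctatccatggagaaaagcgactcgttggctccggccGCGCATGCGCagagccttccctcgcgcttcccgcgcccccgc
Atp5g3: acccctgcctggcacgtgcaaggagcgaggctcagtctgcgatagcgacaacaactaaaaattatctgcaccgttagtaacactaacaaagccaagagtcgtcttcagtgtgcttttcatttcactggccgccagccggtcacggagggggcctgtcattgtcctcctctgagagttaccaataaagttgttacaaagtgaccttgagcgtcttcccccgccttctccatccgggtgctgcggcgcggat
Cox6a1: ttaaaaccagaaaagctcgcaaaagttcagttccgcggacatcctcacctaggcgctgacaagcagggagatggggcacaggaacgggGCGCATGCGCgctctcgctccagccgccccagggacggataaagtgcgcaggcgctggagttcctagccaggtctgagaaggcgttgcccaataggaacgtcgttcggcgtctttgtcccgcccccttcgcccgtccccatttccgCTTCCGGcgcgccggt

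The windows were chr11:96075632-96075881 for Atp5g1, chr15:102671048-102671297 for Atp5g2, chr2:73911327-73911576 for Atp5g3 and chr5:115348959-115349208 for Cox6a1, all on the minus strand. Atp5g2 carried the NRF1 core and Atp5g1 and Atp5g3 carried neither core in this window. Cox6a1 carried both.

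Over the 73 members with a RefSeq promoter entry, 8 (10.96%) held the NRF1 core GCATGCGC, against 2.98% of 17491 promoters of protein-coding genes, and 12 (16.4%) held the ETS core CCGGAAG, against 9.12%. The YY1 core AAGATGGC was found in 0 member promoters and in 1.51% of all, and TATAAA in 6 (8.22%) and in 12.4% of all. Both strands were searched, with the first entry of each gene. The 18 tested members with an NRF1, ETS or YY1 core had a median log2 ratio of -1.25 (-1.46 to 0.14). The 53 without had -1.20 (-2.06 to 0.19). The part of these letters in the ratio between media was not tested. Members with no entry included Atp5a1, Atp5mpl, Cox4i1, Cox4i2, Cox6a2, Cox6c, Ndufa2, Ndufa4l2, Ndufaf6, Ndufb9, Ndufs1, Uqcrb, Uqcrc2 and Uqcrq.

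The ratio between media varied with the span of the gene, from the first to the last annotated base including introns. The median log2 ratio was -1.33 for the 28 tested members under 5 kb, -1.24 for 30 of 5 to 10 kb, -1.08 for 16 of 10 to 20 kb and -0.65 for 11 of 20 kb and over. For all genes tested in the same span classes the medians were -0.08, -0.20, -0.10 and 0.07. Across the 85 members Spearman's rho of span and log2 ratio was 0.51, given as a description, since the genes were measured in the same libraries. The same rho over 19007 genes tested was 0.18. Across the 85 members the rho of mean CPM and log2 ratio was -0.44, and that of span and mean CPM was -0.095. Long members with little difference were Ndufs1 (33.2 kb), the assembly factors Ndufaf5 (33.0 kb) and Ndufaf2 (155.9 kb, log2 ratio -0.28), and Ndufs4 (100.5 kb, log2 ratio -0.15). Ndufa12 was an exception at 22.7 kb with -1.33. Atp5g2 and Ndufaf4 were exceptions of the other kind, with spans of 9.49 and 6.92 kb and ratios near 0. The part of span and of mean CPM in the result was not tested.

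**Figure D3:**
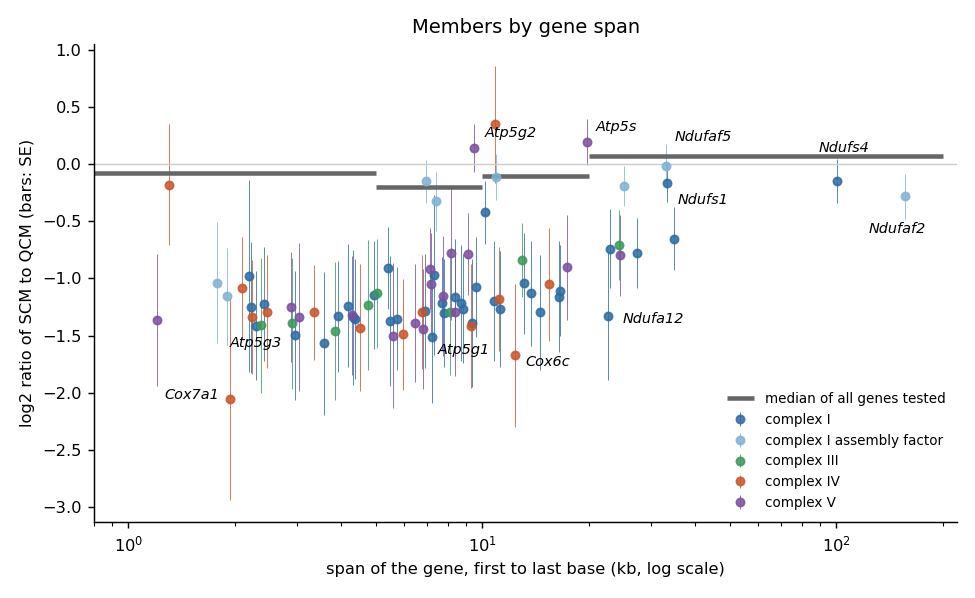
Log2 ratio of SCM to QCM (edgeR estimate, bars are SE) against the span of the gene in kb on a log axis for the 85 tested members, coloured by complex, with grey lines for the median of all genes tested in 4 span classes. Members under 10 kb lie mostly between -1 and -1.6, and several members above 20 kb lie close to 0.

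Other lists of genes of energy metabolism had medians nearer to 0 than that of the members, with 0 genes called by edgeR in each list. The 4 genes of complex II, which feeds electrons from succinate, had a median of -0.75. At an unadjusted edgeR p under 0.05, 2 were lower, beside 3.08% of all genes. Sdha had 213, 195 and 184 CPM in QCM and 141, 167 and 203 CPM in SCM (log2 ratio -0.38 ± 0.23, SE). The 8 further genes of complex III and its assembly had a median of -0.62, with Cyc1, the cytochrome c1 subunit, at -1.07 ± 0.41 and the assembly factor Uqcc1 at 0.11 ± 0.19 (SE). The 18 tested complex IV assembly factors had a median of -0.51, with Lrpprc, which stabilises mitochondrial transcripts, at 0.01 ± 0.24 and Cox10, of heme synthesis, at 0.07 ± 0.19 (SE). Among 6 further genes of complex V, its assembly and its regulation, the median was -0.74. The inhibitor Atpif1 had -1.15 ± 0.46 and Usmg5 had -1.51 ± 0.63 (SE).

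The 19 genes of the tricarboxylic acid cycle and pyruvate entry had a median of -0.42. At an unadjusted edgeR p under 0.05, 5 were lower and 0 higher, beside 3.08% of all genes that were lower. Ogdh had 214, 355 and 334 CPM in QCM and 278, 308 and 333 CPM in SCM, while Mdh2 had 410, 227 and 263 CPM in QCM and 115, 146 and 246 CPM in SCM. The 19 glycolytic genes had a median of -0.55 with 2 at an unadjusted p under 0.05, and Gapdh, a glycolytic dehydrogenase, had -1.18 ± 0.56 (SE). Of 15 tested regulators of mitochondrial genes, 0 had an unadjusted edgeR p under 0.05 and the median was -0.04. Nrf1 had 130, 253 and 189 CPM in QCM and 247, 230 and 224 CPM in SCM, Hnf4a had a log2 ratio of -0.10 ± 0.24, and Esrra had -0.24 ± 0.22 (SE).

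Within the deposited clusters of nuclei, the members were lower in SCM by median in 13 of 13 clusters that could be fitted, from -0.78 in cluster 8 to -1.29 in cluster 10, while the median of all genes in these clusters lay between -0.03 and 0.03. The fixed markers gave a tuft-like cluster 11, enteroendocrine-like clusters 9 and 10, a fetal-like cluster 7, an enterocyte-like cluster 8 and a cluster 6 with goblet and Paneth markers, and left the others unnamed. Over the 1045 pairs of a member and a cluster edgeR called 0, as it called 0% of all genes. At an unadjusted p under 0.05, 501 pairs (47.9%) were lower and 0 were higher, beside 4.55% of all genes. The clusters come from the same samples, so clusters and pairs were not separate observations of a difference. This count at an unadjusted p was not repeated with a sample left out. Members under 10 kb had a lower median than those of 20 kb and over in each of the 13 clusters, for example -1.31 and -0.57 in cluster 7. Ribosomal protein genes had medians of -0.85 to -1.38.

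Other tests called some of these pairs. DESeq2 called 8 members, beside 0.03% of all genes, all in the fetal-like cluster 7, in which 5 of the fixed fetal markers were at least 2-fold higher than in other nuclei. They were Atp5g1, Atp5h, Atp5o, Cox4i1, Cox7b, Ndufa4, Ndufb9 and Ndufc1, with DESeq2 log2 ratios from -1.31 for Cox4i1 (adjusted p = 0.046) to -1.65 for Ndufc1 (adjusted p = 0.046), and edgeR gave each an adjusted p of 0.339. Without the filter on low counts edgeR called 380 of 1129 pairs (33.7%), beside 0.984% of all genes, and every one of these pairs had also been tested with the filter. Without QCM replicate 2 edgeR called 4 of 1046 pairs, beside 0.0238% of all genes, and without SCM replicate 2 it called 0 of 1058, beside 0.00144%.

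The clusters themselves differed in the percent of UMIs taken up by members. Cluster 1 was the highest cluster in 6 of 6 samples, with 4.10%, 1.64% and 2.75% for QCM (replicates 1, 2 and 3) and 1.55%, 1.16% and 1.95% for SCM. Relative to the whole of the same sample it was higher by a mean log2 ratio of 0.52 ± 0.13 (SD, n = 6). Cluster 1 held markers of several mature types, with 6 of enterocytes, 3 of goblet and 3 of Paneth cells, and stayed unnamed. Cluster 4 was above its sample in 6 of 6 samples (0.28 ± 0.07, SD) and cluster 13 in 4 of 4 (0.25 ± 0.09, SD). The enterocyte-like cluster 8 was not high, at -0.14 ± 0.15 (SD, n = 6). Cluster 2 was below its sample in 6 of 6 (-0.31 ± 0.15, SD), and the enteroendocrine-like clusters 9 and 10 stood apart, at -0.26 ± 0.28 and 0.12 ± 0.09 (SD, n = 5). Cluster 14, of 92 nuclei with a median of 39432 UMIs, had -0.94 ± 0.58 (SD, n = 3). Clusters had been made from these nuclei, after the authors had regressed out mitochondrial and total counts, so these differences were not tested.

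Among clusters 0 to 13, the fold between the highest and lowest cluster of one sample was 1.57 to 2.46. With cluster 14, which was the lowest in QCM replicates 1 and 2 and had at least 10 nuclei in 3 samples, it reached 3.92 in QCM replicate 1 and 2.55 in QCM replicate 2. Cluster levels ran with mt_frac and with ribosomal protein genes: cluster 1 ranked first of clusters 0 to 13 in both, at a median mt_frac of 3.46% ± 2.17 (SD, n = 6) and 11.01% ± 5.33 ribosomal protein UMIs, and cluster 2 had 1.74% ± 1.15 and 5.47% ± 3.23 (SD, n = 6). Depth differed as well, with a median of 1821 UMIs per nucleus in cluster 1 and 2557 in cluster 2. The part of depth and of mt_frac in the order of clusters was not tested.

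Of 82 members with at least 10 CPM, 67 were above the level of their own sample in cluster 1 in 6 of 6 samples, and 65 were below it in cluster 2 in 6 of 6. Of the 10228 genes with at least 10 CPM, 12.6% were above in cluster 1 and 14.1% below in cluster 2 in all samples. The opposite was seen for 2 members below in cluster 1, beside 39.8% of these genes, and for 3 above in cluster 2, beside 27.1%. Ndufa1, Ndufa11 and Ndufaf3 varied most across clusters, and in cluster 1 their log2 levels relative to the sample were 0.69 ± 0.35, 0.58 ± 0.23 and 0.73 ± 0.22 (SD, n = 6). Cox4i1 stood at 0.61 ± 0.22 in cluster 1 and at -0.49 ± 0.31 in cluster 2 (SD, n = 6). Ndufs1 and Atp5s were below the sample in cluster 1 in 6 of 6 samples, at -0.13 ± 0.07 and -0.55 ± 0.52 (SD). Atp5g2 was at -0.21 ± 0.25 in cluster 1 and at 0.28 ± 0.12 in cluster 2, where it was above in 6 of 6 samples, whereas Atp5g1 had 0.65 ± 0.23 and -0.43 ± 0.30 and Atp5g3 0.57 ± 0.12 and -0.30 ± 0.14 (SD).

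**Figure D4:**
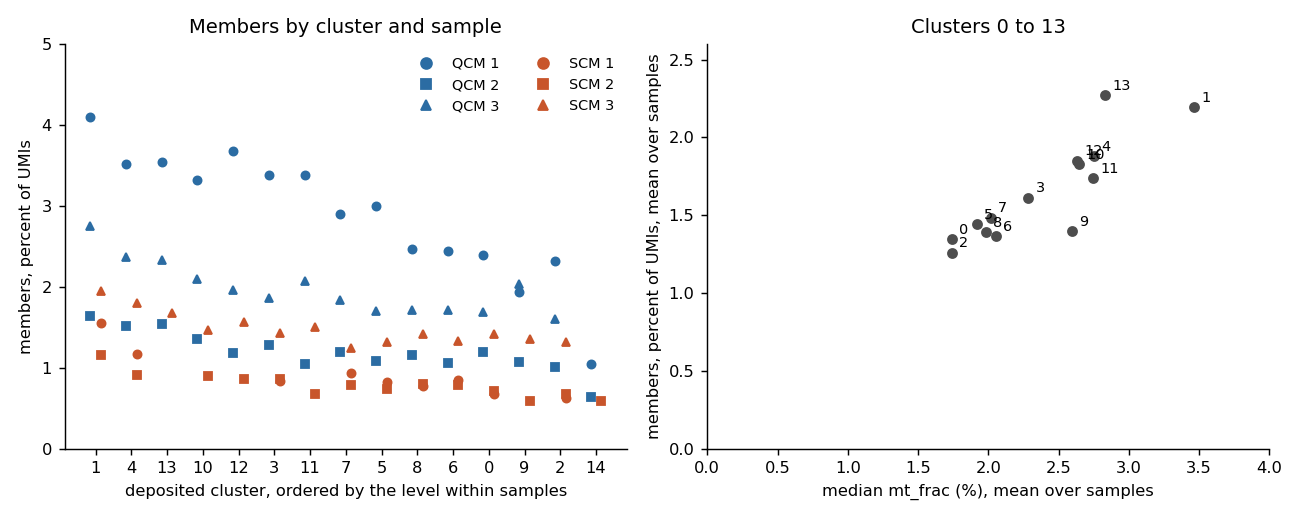
Left, percent of UMIs taken up by members in each deposited cluster and sample, with clusters ordered by the mean log2 level relative to the own sample; samples with fewer than 10 nuclei of a cluster are left out. Right, mean percent of member UMIs against the mean of the median mt_frac for clusters 0 to 13, over 6 samples for clusters 0 to 8 and 4 or 5 for clusters 9 to 13. Cluster 1 is highest in all 6 samples, and most clusters with a higher mt_frac have more member UMIs.

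Members were set beside mt_frac nucleus by nucleus within each sample, by comparing the 25% of nuclei with the highest mt_frac (high-mt nuclei) with the 25% with the lowest (low-mt nuclei). Members were higher in the high-mt nuclei in 6 of 6 samples. They took up 2.13%, 0.907% and 1.44% of UMIs in the low-mt nuclei of QCM replicates 1, 2 and 3 and 3.61%, 1.53% and 2.80% in the high-mt nuclei. For the SCM replicates, low-mt nuclei had 0.609%, 0.672% and 1.16% and high-mt nuclei 1.20%, 1.01% and 1.99%. The mean log2 ratio of high to low was 0.80 ± 0.15 (SD, n = 6). With the nuclei split by mt_frac into 4 classes of equal size, the percent was higher at each step in 4 of 6 samples. It was lower in the fourth than in the third class in QCM replicate 1, and lower in the third than in the second in SCM replicate 1. Within clusters the log2 ratio averaged 0.70 over the samples. The QCM replicates 1, 2 and 3 had 0.36, 0.61 and 0.78, whereas the SCM replicates had 1.36, 0.42 and 0.64. The value of SCM replicate 1, the highest, came from 1 cluster, and the other samples had 8 to 12 clusters with enough nuclei. In the other 5 samples the ratio was lower within clusters than over all nuclei, for example 0.36 against 0.76 in QCM replicate 1, and it was above 0 in every cluster compared.

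Depth and ribosomal protein genes moved along the same split. High-mt nuclei had fewer UMIs in 6 of 6 samples, for example a median of 1242.5 against 2278 in QCM replicate 3 and 1091 against 9494 in SCM replicate 1. Ribosomal protein genes were higher in high-mt nuclei by 1.13 ± 0.29 and glycolytic genes by 0.70 ± 0.25 (log2, SD, n = 6), both in 6 of 6 samples. Genes of the tricarboxylic acid cycle had 0.05 ± 0.12 and were higher in 4 of 6. The part of depth in these ratios was not tested.

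By complex, the log2 ratio of high-mt to low-mt nuclei was 0.73 ± 0.11 for complex I, 0.93 ± 0.17 for complex III, 0.87 ± 0.18 for complex IV and 0.83 ± 0.18 for complex V (SD, n = 6). Of the 82 members with at least 10 CPM, 69 were higher in high-mt nuclei in 6 of 6 samples and 3 were lower in 6 of 6, on the scale of log2(CPM + 1). Of the 10228 genes with at least 10 CPM, 12.8% were higher and 46% lower in all samples. The 3 members that were lower were Ndufs1, Ndufaf5 and Atp5s, with mean log2 ratios of -0.25 ± 0.23, -0.47 ± 0.21 and -0.51 ± 0.35 (SD, n = 6). Atp5g2 again differed from its relatives, with -0.42 ± 0.21 against 1.14 ± 0.48 for Atp5g1 and 1.03 ± 0.19 for Atp5g3 (SD, n = 6).

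Cox4i1 had 1048, 483 and 713 CPM in the low-mt nuclei of QCM replicates 1, 2 and 3 and 1844, 959 and 1500.5 CPM in the high-mt nuclei. In SCM it had 145, 283 and 526 CPM in the low-mt and 439, 473 and 963 CPM in the high-mt nuclei. Among all 82, the median ratio was 1.01 for 26 members under 5 kb, 0.84 for 30 of 5 to 10 kb, 0.71 for 15 of 10 to 20 kb and 0.36 for 11 of 20 kb and over. The assembly factors had a median of -0.17, with 2 of 8 higher in all samples, while the members of complexes III and IV were higher in 6 of 6 samples for 8 of 8 and 12 of 12 genes. Cox7a1 and Cox6c, among the 3 members with the lowest ratios between media, had 1.19 ± 0.55 and 0.99 ± 0.23 (SD, n = 6).

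**Figure D5:**
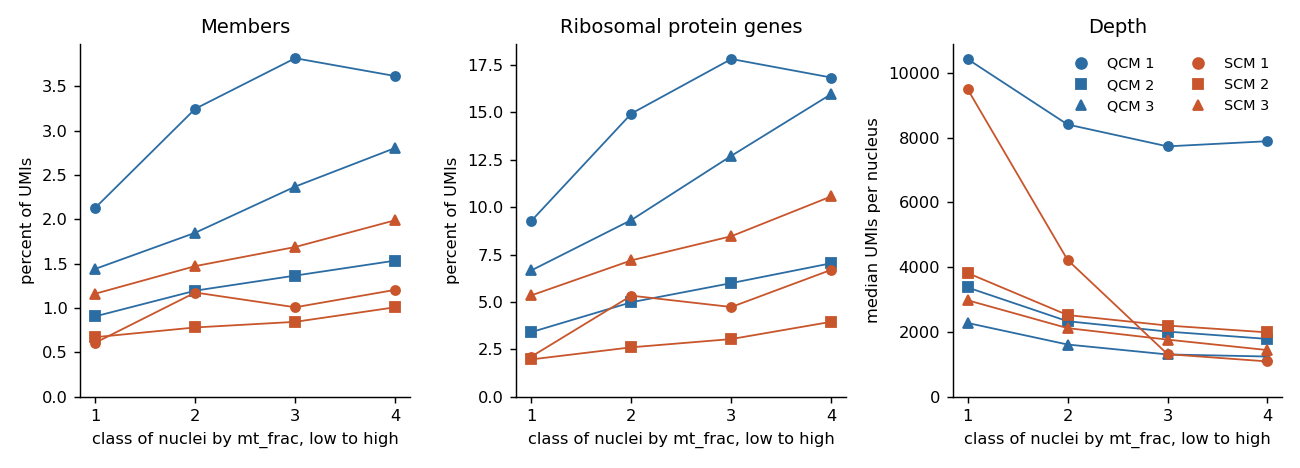
Percent of UMIs of the members (left) and of ribosomal protein genes (middle) and the median UMIs per nucleus (right) in 4 classes of nuclei of equal size by mt_frac, from low to high, 1 line per sample. In all 6 samples the members are higher in the fourth class than in the first, and the depth is lower.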

How the data were processed

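Single-nucleus libraries of 3 QCM and 3 SCM organoid samples were made with a 3′ droplet kit. The authors made the deposited UMI counts with Cell Ranger (version 2.1.1 in the submitters' processing notes) on the mm10 mouse genome with an Ensembl annotation, and removed nuclei with outlying mitochondrial fraction, reads or features. The deposited mitochondrial fraction (mt_frac, printed as a percent) and cluster numbers, from Leiden clustering after integration, are the authors' own. All 38154 nuclei were used, no doublet caller was run, and an alternative left out the 6% of nuclei with most UMIs. Gene identifiers were named with GENCODE M21 on GRCm38 (31258 of 31319), and 2 identifiers that meet the rule, for Cox8c and a second Atp5o entry, were not analysed here. Transcripts of mitochondrial DNA were also not analysed here.

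Sums of UMIs over a sample, or over its nuclei of one cluster (at least 10), were tested with edgeR 4.0.16 (quasi-likelihood, TMM, filterByExpr with a minimum count of 10) in R 4.3.3, adjusted by Benjamini-Hochberg over all genes at 0.05. DESeq2 1.42.0 and limma 3.58.1 were alternatives, as were no filter, library size alone, the replicate number as a block, mt_frac as a covariate and leaving out samples. Leaving out shared barcodes, and replicates 2 and 3 alone for the summed level, were added after seeing the data. The fits were checked on simulated counts. CPM are per library total. Summed levels, clusters, classes of mt_frac and promoters were described without a test.

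The members and lists were chosen with earlier results of these data known. The genes named were the 2 with most CPM in each class, the 3 highest and 3 lowest ratios and the 3 most variable across clusters among those of at least 10 CPM, tissue isoforms, Atp5g genes and up to 3 genes with most CPM in each other list. Ndufs4, Ndufa12, Ndufaf8, Cox6a1, members without overlap and the DESeq2 calls were named after their values were seen. Some genes that enter the counts are not reported by name here. A cluster was named when at least 3 fixed markers were 2-fold higher than in other nuclei at 5 CPM or more and markers of another type were not more frequent among its 10 leading genes.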

Additional observations from a re-analysis of the deposited data

How the results depend on the processing

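The direction held for the median of the members between media, which lay between -0.51 and -1.61 on the log2 scale under all 15 alternatives, and 0 members were called in each. The values that moved most were -0.57 without QCM replicate 1 (range when 1 sample was left out -1.61 to -0.57) and -0.51 with replicates 2 and 3 alone. The number of members lower in SCM at an unadjusted p under 0.05 was 52 in edgeR with all samples, beside 3.08% of all genes. It was 1 to 70 when 1 sample was left out, beside 0.289% to 8.71% of all genes. It was 29 with voom and limma, 15 with mt_frac as a covariate and 1 with replicates 2 and 3 alone. The share of all genes was not taken in these last fits, so a change particular to the members cannot be read from them. Within clusters DESeq2 called 8 member and cluster pairs, edgeR without the filter 380, and 0 to 4 when 1 sample was left out. The cause of these changes was not tested. The replicate numbers were not taken as pairs in the main fits, since the labels do not state pairs. The deviations of same-numbered samples correlated at 0.36, 0.46 and -0.09, and those of differently numbered samples at -0.46 to 0.16. These values do not settle whether the samples were paired. With the replicate number as a block edgeR called 0 members in all nuclei, with a median of -1.07. Within clusters it called 38 of 1045 member and cluster pairs, beside 0.191% of the pairs of all genes. The summed level of the members stayed lower in SCM under its 11 alternatives (-1.28 to -0.51).

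The difference in median mt_frac, 0.00172 percentage points, had no stable sign: it was -0.107 with means, -0.0036 without the shared barcodes, and -0.678 to 0.768 when 1 sample was left out. The ratio of members between the 25% of nuclei with the highest and the lowest mt_frac, 0.80, was 0.50 when the upper and lower 50% were compared, by construction a smaller contrast. Ratios near 0 changed sign: Ndufaf5 had 0.14 with voom and limma, 0.12 with library size alone, 0.0070 with replicates 2 and 3 alone, 0.026 without the deepest nuclei, and -0.098 to 0.088 when 1 sample was left out. Ndufaf4 had 0.017 with library size alone. Cox6b2 had 0.095 with replicates 2 and 3 alone and -0.84 to 0.15 when 1 sample was left out, and Atp5g2 had -0.066 to 0.24. The number of nuclei limited the clusters most in SCM replicate 1, which entered 9 of 13 fits.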

Other observations

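Mitochondrial ribosomal protein genes (Mrpl and Mrps), which build the ribosomes that translate the transcripts of mitochondrial DNA, lay between the members and all genes. Of 77 tested, 75 had estimates below 0 in SCM, beside 51.4% of all genes, with a median log2 ratio of -0.67. Of these genes edgeR called 0. At an unadjusted edgeR p under 0.05, 17 were lower and 0 higher, beside 3.08% of all genes that were lower. Cytosolic ribosomal protein genes had a median of -1.21 over 92 tested, close to the -1.22 of the members, with 19 lower and 0 higher at an unadjusted edgeR p under 0.05 and 0 called. The lists were not tested against each other.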
